A study of Mus musculus with 6 samples.

Results

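The genes described here are the olfactory receptor genes of mouse chromosomes 9 and 17 in monocytes, a gene family best known for its use in the nose. They were chosen from the GRCm38 RefSeq gene table by name alone: protein-coding genes whose symbol is Olfr followed by a number. The rule found 180 genes, 129 on chromosome 9 and 51 on chromosome 17, among 21900 protein-coding genes of the table. Of these, 179 could be placed. Olfr100 stands in the table with coordinates of a scaffold outside the chromosome sequence, so it was not assessed.

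The assay was ATAC-seq, which marks accessible DNA by letting the transposase Tn5 cut and tag it, and the cells were monocytes from blood; every mouse had received diphtheria toxin. The DTR group comprised 3 libraries from thrombocytopenic mice of the PF4cre-iDTR genotype, in which Cre driven from the promoter of the platelet chemokine gene Pf4 turns on a receptor for the toxin, so that the toxin removes megakaryocytes and platelets. The WT group comprised 3 libraries from wild-type control mice, given the same toxin. Each library was made from 50000 cells and came with its own list of broad peaks, 81567 to 84029 peaks in DTR and 77867 to 80475 in WT. The lists hold no read counts, so sequencing depth is unknown. The labels do not say whether libraries came from separate animals or pools, and p-values below measure only the spread between these libraries.

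Olfactory receptors are G protein-coupled receptors of the cilia of olfactory sensory neurons, where an odorant acts through the G protein subunit Gnal, the adenylate cyclase Adcy3 and the channel subunit Cnga2. Each neuron transcribes a single receptor allele, and the remaining receptor genes are held in heterochromatin. In these neurons the factors Lhx2 and Ebf bind receptor promoters and distant enhancers within the gene clusters. The coding region of a receptor usually lies in a single exon, the genes stand in tandem arrays, and many neighbours are close paralogues.

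The labelled cell type was checked at gene ends, within 1 kb of either end of a marker. A peak was present in every library at 10 of 10 monocyte markers and at 0 of 6 markers of olfactory sensory neurons, of which Omp, a protein of mature neurons, had one in 2 DTR and 2 WT libraries. Other blood cells lay between, with 2 of 7 markers of megakaryocytes and platelets, 3 of 7 of T and NK cells, 3 of 5 of B cells and 2 of 6 of neutrophils. Some ends had peaks in more DTR than WT libraries: the neutrophil genes Camp (3 DTR and 1 WT), Ly6g (3 and 2) and Mpo (2 and 0) and the platelet genes Itga2b (3 and 1) and Gp1ba (1 and 0). Cd3e and Cd3g of T cells each had a peak in 0 DTR libraries and 1 WT library. The part of these cells in the results below was not tested.

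Promoter sequences were taken from RefSeq (GRCm38.p6), which held 145 promoters for 144 of the 179 genes. Each runs 5′ to 3′ from 250 bases before to 50 after a start that, for 137 of the 145, is the start of the gene span in the gene table. The other 8 start further in, among them that of Olfr111, by 4204 bp. Promoter here means this window, and whether its start is where transcription begins was not tested. In Olfr961 the 50 bases after the start open with ATG, the letters of a start codon, so that window may end in coding sequence. The sequences are shown because receptor promoters differ in composition from most promoters, and because the promoter of Olfr110 was the one of the 145 with a peak on it. In Olfr110 (chr17:37492218-37492517, plus strand) capitals mark the 48 bases that lay under a peak in all 6 libraries. Olfr960 (chr9:39622875-39623174, plus strand) and Olfr961 (chr9:39646478-39646777, plus strand) are close relatives whose peaks lay elsewhere, so they have no capitals. In Olfr99 (chr17:37280369-37280668, minus strand), a gene with no peak in its window, capitals mark a match to the palindromic Ebf motif searched for below.
Olfr110: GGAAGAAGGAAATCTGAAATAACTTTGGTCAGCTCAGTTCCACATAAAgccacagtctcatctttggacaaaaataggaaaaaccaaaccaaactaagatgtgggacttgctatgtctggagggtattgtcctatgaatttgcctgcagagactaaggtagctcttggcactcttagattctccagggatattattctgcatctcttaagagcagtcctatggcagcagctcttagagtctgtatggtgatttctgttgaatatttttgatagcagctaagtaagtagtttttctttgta
Olfr960: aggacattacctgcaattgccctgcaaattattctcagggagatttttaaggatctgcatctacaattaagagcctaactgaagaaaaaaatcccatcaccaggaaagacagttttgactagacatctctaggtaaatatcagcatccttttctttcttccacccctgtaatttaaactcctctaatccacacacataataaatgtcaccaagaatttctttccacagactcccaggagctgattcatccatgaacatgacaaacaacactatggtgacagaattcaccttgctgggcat
Olfr961: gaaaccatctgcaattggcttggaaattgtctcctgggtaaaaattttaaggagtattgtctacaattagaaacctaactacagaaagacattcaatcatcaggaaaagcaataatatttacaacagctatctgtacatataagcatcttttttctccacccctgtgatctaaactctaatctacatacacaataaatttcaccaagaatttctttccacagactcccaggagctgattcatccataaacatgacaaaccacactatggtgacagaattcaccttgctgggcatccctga
Olfr99: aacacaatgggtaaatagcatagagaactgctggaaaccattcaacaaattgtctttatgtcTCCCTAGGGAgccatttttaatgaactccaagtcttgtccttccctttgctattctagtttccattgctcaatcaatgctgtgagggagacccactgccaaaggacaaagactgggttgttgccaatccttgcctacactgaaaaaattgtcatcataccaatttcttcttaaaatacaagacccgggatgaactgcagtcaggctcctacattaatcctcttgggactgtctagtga

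Nearly all receptor genes lacked a peak. A gene was counted as open in a library when at least 1 peak overlapped its body extended by 1 kb on each side, and as closed when no peak did. Of the 179 genes, 171 (95.5%) were closed in every library, against 27.7% of all protein-coding genes. Open in all 6 libraries were 5 (2.79%), against 69.0% of all protein-coding genes and 78.3% (1619 of 2067) of the other protein-coding genes of the same chromosomes. Both chromosomes were alike in this: 125 of 129 genes were closed on chromosome 9 and 46 of 50 on chromosome 17.

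Receptor genes are short, and a short window can meet fewer peaks. Their median length was 948 bp, against 18322 bp for the other genes of both chromosomes. Among other genes of these chromosomes no longer than the longest receptor gene (40147 bp), 75.8% (1142 of 1506) were open in all libraries. Among those no longer than the upper quartile of the receptor genes, a limit set after the data were seen, the number was 8 of 33 (24.2%). On all chromosomes it was 136 of 862 (15.8%). The receptor genes thus had the lowest share of these sets, and the gap was smaller beside shorter genes. The short genes of all chromosomes include other sensory receptors, among them Vmn1r genes (median 924 bp). In these counts length is thus mixed with the kind of gene. In promoter windows, each of 300 bases, a peak in all libraries lay on 1 of 145 receptor promoters (0.690%). The number was 1330 of 2202 (60.4%) for promoters of other genes of both chromosomes. The part of length was not tested.

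Receptor genes elsewhere in the genome had a similar share. On the other chromosomes 21 of 929 olfactory receptor genes (2.26%) were open in all libraries and 898 (96.7%) were closed in all. Vomeronasal receptors, which detect pheromones, were open in all libraries at 1 of 228 Vmn1r and 3 of 122 Vmn2r genes (median 24640.5 bp). The number was 2 of 15 for trace amine receptors (Taar) and 6 of 38 for taste receptors (Tas1r and Tas2r). These are counts beside each other, with no test of their differences.

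**Figure D1:**
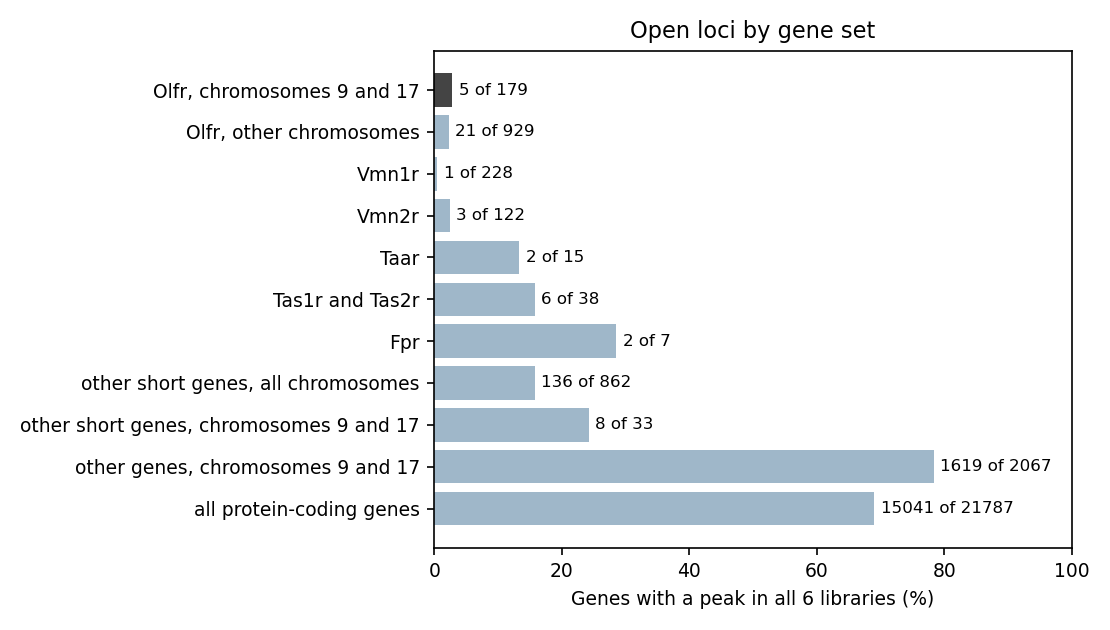
Share of genes with a peak in all 6 libraries (horizontal axis, percent) for each gene set, with the number of genes beside each bar; short means no longer than the upper quartile of the receptor genes. The bar of the Olfr genes of chromosomes 9 and 17 (5 of 179) lies near that of the Olfr genes of other chromosomes (21 of 929) and far below that of other genes of the same chromosomes (1619 of 2067).

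The genes fall into 4 clusters, defined as runs of at least 3 receptor genes with gaps of up to 500 kb, which together hold all 179. On chromosome 9 they run from Olfr24 to Olfr18 (35 genes) and from Olfr160 to Olfr986 (94 genes), and on chromosome 17 from Olfr55 to Olfr63 (4 genes) and from Olfr90 to Olfr136 (46 genes). The first cluster had 0 open genes in any library over 1581 kb. The second had 4, the third 1 and the fourth 3. The nearest peak of any library lay a median of 115 kb from a closed gene (quartiles 40.6 and 272 kb), and 122 of the 171 closed genes had no peak within 50 kb. At the end of the fourth cluster, Olfr136 lay 796 kb (796445 bp) from the nearest peak.

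Peaks inside the clusters were sparse. The 4 clusters span 5.40 Mb and held 31, 29 and 28 peaks in the DTR libraries and 27, 24 and 27 in the WT libraries. This corresponds to 5.43 ± 0.283 peaks per Mb in DTR and 4.81 ± 0.321 in WT (SD, n = 3 each). Over the rest of both chromosomes there were 38.4 to 39.7 peaks per Mb in DTR and 36.7 to 38.0 in WT, which is 6.92 to 7.45 times and 7.41 to 8.27 times the density inside the clusters. Of the cluster peaks, 8, 7 and 7 fell in receptor gene windows in DTR and 5 in each WT library, while 8 in each DTR and 7 in each WT library fell at other genes inside the clusters. The remaining 13 to 15 in DTR and 12 to 15 in WT lay between genes.

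Merged over the 6 lists, the cluster peaks formed 36 regions, of which 23 had a peak in all libraries. Receptor gene windows held 9 regions, other genes 10, and the space between genes 17, of which 11 were present in all libraries. Those 17 lay 1.44 to 21.1 kb from the nearest receptor gene (median 6.23 kb). The genes inside the clusters that are not receptors differed in whether they were open. Zfp317, a zinc finger gene, Vwa5a, AW551984 and H2-M3, which encodes a class I molecule that presents formylated peptides, were open in all libraries. Tmem225 was open in 1 DTR library, and Zfp955a, Ubd (a ubiquitin-like modifier) and H2-M2 were closed.

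**Figure D2:**
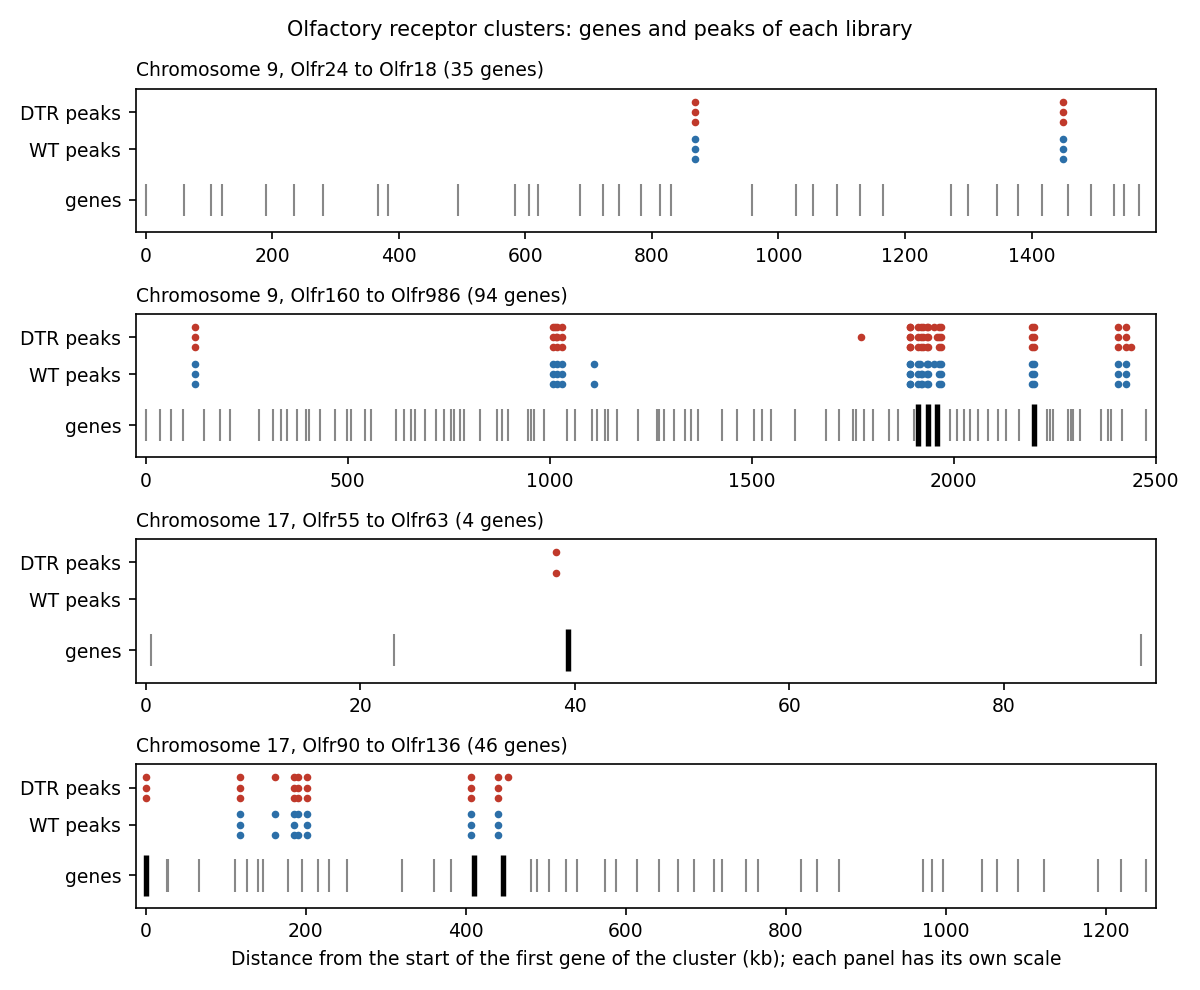
Maps of the 4 clusters; the horizontal axis is the distance in kb from the start of the first gene of each cluster, on a scale of its own per panel. Vertical lines are receptor genes (thick black with a peak in any library, thin grey with none), and dots are peaks, 1 row per library; 36 merged regions are spread unevenly, and long runs of genes have none.

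Open regions stood together in a few places. A gene is counted as open because such a region overlaps its window, so open genes lie with open regions by definition. With regions joined over gaps of up to 25 kb, a limit set after the data were seen, the richest stretch was 76.9 kb on chromosome 9 (39602698 to 39679596). It held 11 of the 36 regions, 8 of them present in all libraries. It begins at AW551984 and contains 4 receptor genes, Olfr148, Olfr960, Olfr961 and Olfr963. Olfr960 and Olfr961 were open in all libraries, Olfr963 in DTR library 2 alone, and Olfr148 was closed in all (9328 bp from the nearest peak). On chromosome 17 a stretch of 40.2 kb around H2-M3 (37246795 to 37287006) held 4 regions and the closed genes Olfr98 and Olfr99.

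Olfr960 was open in every library, at the far end of its body. Its peak began 731 to 762 bp after the start of the 1041 bp gene, which lies on the plus strand, and stayed within the gene (39623856 to 39624127 over all libraries). The authors' fold enrichment over the caller's background was 5.75, 5.40 and 5.92 in DTR and 5.74, 5.23 and 4.02 in WT. WT library 3 was the lowest and the groups overlapped. The fold ranked at the 50.2 to 59.5 percentile of its own list in DTR and the 29.9 to 56.6 percentile in WT, so it was of middling strength.

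Olfr961 was open in every library at a similar place. Its peak (39647360 to 39647926) began 732 to 766 bp after the gene start in DTR and 632 to 766 bp in WT and ran past the end of the 945 bp gene. The folds were 6.45, 6.10 and 5.71 in DTR and 5.06, 4.96 and 5.12 in WT, without overlap between the groups. Each fold is relative to the background of its own list, so no test was made of folds between libraries.

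Olfr963 had a peak in DTR library 2 alone (39669841 to 39669979), 139 bp wide and with a fold of 2.93, at the 10.6 percentile of that list. It began 782 bp after the start of the 936 bp gene. Olfr960, Olfr961 and Olfr963 belong to the receptor family named MOR224 among the synonyms of the gene table, which has 10 genes here, and 3 of these 10 had a peak. Their RefSeq promoters were 81.4% to 84.0% identical over 288 to 293 aligned bases, and none of these promoters lay under a peak. The other 7 genes of the family were closed, 9328 to 161566 bp from the nearest peak, and their promoters were not aligned.

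Olfr229 had the strongest peak of any receptor gene here. It spanned 39909691 to 39910422 over all libraries and covered 569 to 618 of the 924 bp of the gene. The folds were 7.34, 7.50 and 7.24 in DTR and 7.80, 8.66 and 8.16 in WT, at the 74.4 to 74.9 and the 79.4 to 85.1 percentile of the lists. Here the WT libraries were the higher ones, without overlap. The gene is 1 of 35 of family MOR171, and the other 34 were closed. The peak began just before the lower end of the gene in every library. With no RefSeq promoter for it here, its strand is not given and a peak on its promoter could not be assessed.

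On chromosome 17, Olfr110 and Olfr111 were open in every library. The peak of Olfr110 lay just before the gene (37491961 to 37492356) and overlapped the promoter printed above, with folds of 4.32, 4.92 and 6.19 in DTR and 4.18, 3.90 and 4.10 in WT. All DTR folds were above the WT folds, with DTR library 3 the highest. The gene is the only one of family MOR249 in these clusters.

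Olfr111 had the widest receptor peak, 1206 to 1392 bp in DTR and 1208 to 1408 bp in WT (37524480 to 37526012). It lay across the start of the 11900 bp gene span on the plus strand in all 6 libraries, ending 55 to 118 bp inside it in DTR and 72 to 259 bp inside it in WT. The promoter that RefSeq gives for this gene lies further in and was not under it. The folds were 5.98, 5.93 and 5.80 in DTR and 5.56, 6.03 and 5.32 in WT, with overlapping groups. DTR library 1 had a second, weak peak 0.908 kb beyond the other end, with a fold of 3.21.

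The remaining open genes had peaks in DTR libraries alone. Olfr90, at the edge of the fourth cluster, was open in all 3 DTR and 0 WT libraries, with folds of 2.84, 2.81 and 2.75, at the 8.61 to 10.2 percentile of the lists. That weak peak (37084817 to 37085306) lay across the end of the gene, which is on the minus strand. The next region outward, 1557 to 1576 bp from the gene in DTR and 1521 to 1572 bp in WT, had a peak in every library, with folds of 7.56, 6.56 and 6.59 in DTR and 6.91, 6.48 and 7.05 in WT. Olfr1564 was open in DTR libraries 1 and 3, with folds of 3.07 and 3.65, through a peak 546 bp outside the gene (33214560 to 33214715).

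The limit of 1 kb fell in a gap. The farthest peaks inside it were those of Olfr1564 (546 bp) and the second one of Olfr111 (0.908 kb). The nearest region outside it lay 1.44 kb from Olfr961, which was open in all 6 libraries through another peak. Where a gene had no peak inside the limit in a library, the nearest were those of Olfr90 in WT, at 1521, 1528 and 1572 bp. A limit of 1572 bp or more thus counts Olfr90 as open in all 6 libraries and no longer in DTR alone. At genes closed in every library, the nearest were those of Olfr44 (2523 bp, in 1 DTR library), Olfr99 (3278 bp, in 3 DTR and 2 WT libraries) and Olfr922 (3778 bp, in 2 WT libraries).

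**Figure D3:**
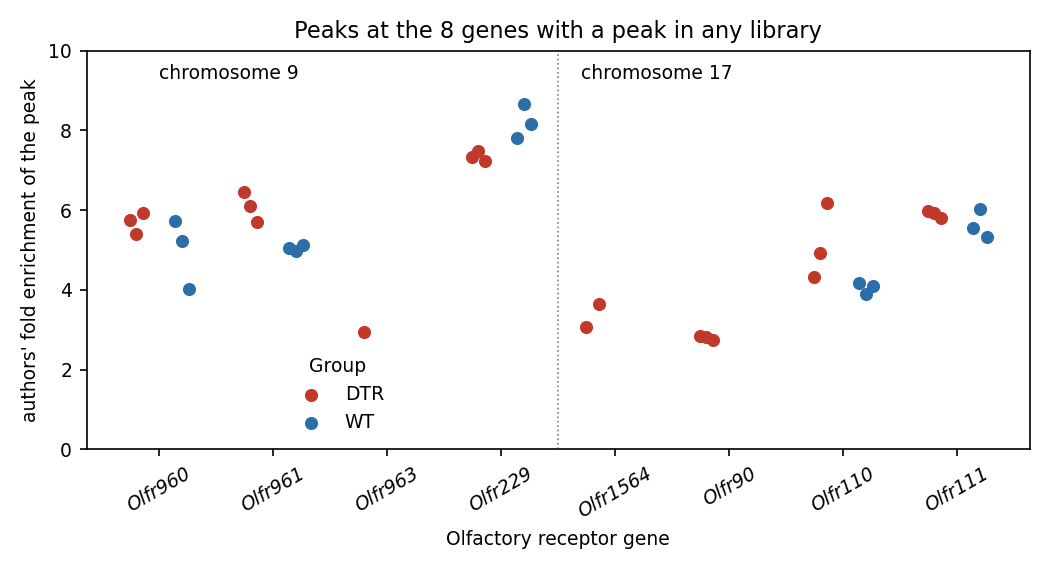
The authors' fold enrichment (vertical axis) of the strongest peak at each of the 8 receptor genes with a peak, 1 point per library, DTR left of WT for each gene. Olfr229 is the highest at 7.24 to 8.66; Olfr963, Olfr1564 and Olfr90 have DTR points alone, between 2.75 and 3.65.

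Each DTR library had 7 open receptor genes and each WT library 5, a difference of 2 (7 ± 0 and 5 ± 0, SD, n = 3 each; exact two-sided permutation test, p = 0.1, the smallest this design can give). The 5 were the same genes in every WT library (Olfr960, Olfr961, Olfr229, Olfr110 and Olfr111), and the DTR libraries added Olfr90 and either Olfr1564 or Olfr963. Distinct peaks in the windows numbered 7.33 ± 0.577 in DTR and 5 ± 0 in WT, and they covered 3403 ± 187 bp and 2740 ± 53.9 bp (SD, n = 3 each; exact permutation p = 0.1 for each). The share of open receptor genes over that of other genes of the same chromosomes was 0.0486 ± 0.000128 in DTR and 0.0351 ± 0.000237 in WT (SD, n = 3 each; exact permutation p = 0.1). Cluster peak density, given above, differed by 0.617 peaks per Mb (exact permutation p = 0.1). Adjusted by Benjamini-Hochberg over these 5 tests, each p stayed 0.1, so none passed a threshold of 0.05.

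Few receptor genes differed between the groups, and how their share compared with that of all genes depended on the call. Open in all DTR and no WT library was 1 of 179 (0.559%), Olfr90, against 0.0964% of all protein-coding genes. The reverse held for 0 of 179, against 0.0229%. Open in more DTR than WT libraries were 3 of 179 (1.68%), Olfr90, Olfr1564 and Olfr963, against 2.0% (435 of 21787) of all protein-coding genes. The reverse held for 0, against 0.656%. The share was thus above that of all genes by the first call and below it by the second. On the other chromosomes, 5 of 929 receptor genes were open in more DTR libraries and 3 in more WT libraries. The shares among the 179 rest on 1 to 3 genes.

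The difference moved with the length of the peak lists, which were longer in DTR, and with the window around each gene. With every list cut to the 77867 peaks with the lowest deposited p, open receptor genes numbered 5, 6 and 6 in DTR and 5 in each WT library (difference 0.667, exact permutation p = 0.4), and Olfr90 was closed in all libraries. At a q of at most 1e-05 they numbered 5, 5 and 6 in DTR and 5 in each WT library (difference 0.333, exact permutation p = 1). In the full lists with windows of 5 kb they numbered 11 in each DTR library and 11, 9 and 11 in WT (difference 0.667). In gene bodies alone the difference was 1.33 (exact permutation p = 0.1). The other measures shrank too with equal length and at the stricter q. The difference in distinct peaks, 2.33 in the full lists, was 1 with equal length (exact permutation p = 0.1) and 0.333 at the stricter q (p = 1). That in covered DNA, 663 bp, was 158 bp with equal length (exact permutation p = 0.2), 80.3 bp at the stricter q (p = 0.5) and 78 bp in gene bodies alone (p = 0.5). That in relative share, 0.0135, was 0.00465 with equal length (exact permutation p = 0.2) and 0.00194 at the stricter q (p = 1). That in cluster density, 0.617 peaks per Mb, was 0.432 with equal length and 0.309 at the stricter q (exact permutation p = 0.2 for each). With windows of 5 kb the differences were 2.33 peaks, 710 bp and 0.00378 in relative share, so only the last of these shrank. The 5 genes open in all libraries were the same with equal length and at the stricter q.

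**Figure D4:**
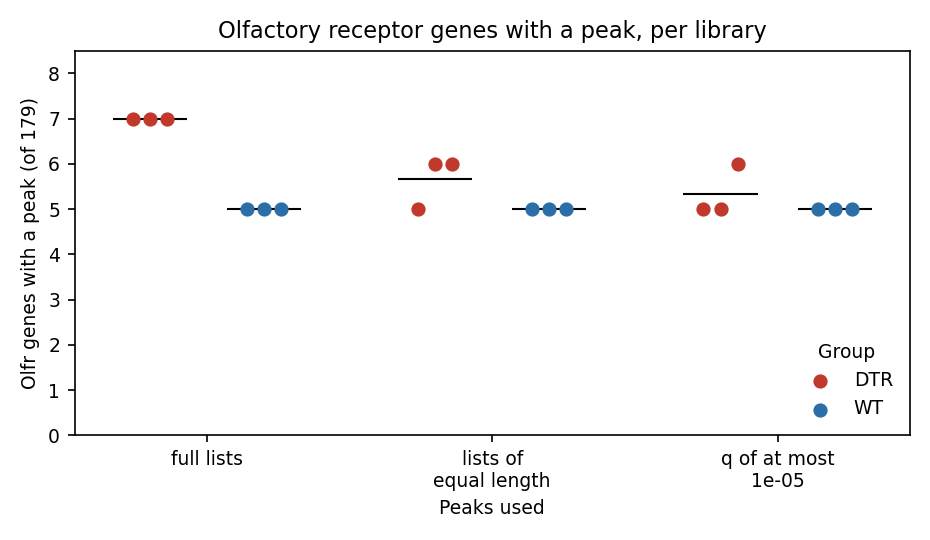
Number of receptor genes with a peak (vertical axis, of 179) in each library, DTR left of WT, for the full lists, lists of equal length and peaks with a q of at most 1e-05; points are libraries and lines group means. DTR exceeds WT by 2 in the full lists, 0.667 with equal length and 0.333 at the stricter q.

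The promoter windows that RefSeq gives for the receptor genes were poor in G, C and CpG. Their median GC content was 34.7%, against 58.0% for 2202 promoters of other genes of both chromosomes, and the median number of CpG was 1, against 15. Of the 145 receptor promoters, 142 had under 5 CpG. Promoters of other genes with so few CpG were less often under a peak than CpG-rich ones, yet more often than receptor promoters. A peak in all libraries lay on 1 of 142 receptor promoters (0.704%) with 0 to 4 CpG, against 61 of 468 of other genes in that class and 1163 of 1393 (83.5%) with 10 or more.

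Letters bound by factors of olfactory neurons and of myeloid cells were searched on both strands of the promoters. The palindromic motif of Ebf (the O/E site) stood in 4 of 145 receptor promoters (2.76%), against 0.959% of all 21263 promoters. Among promoters of all other olfactory receptor genes it stood in 1 of 803 (0.125%). The share was thus above that of all promoters here and below it in the other receptor genes. The 4 were Olfr96, Olfr98, Olfr99 and Olfr108, all of the fourth cluster and all closed. Olfr98, Olfr99 and Olfr108 are of family MOR156 and hold the same letters, TCCCTAGGGA, so these 3 are not separate cases. Olfr96 is of family MOR121 and holds other letters, TCCCATGGGA. The homeodomain core TAATTA, as bound by Lhx2, stood in 32 (22.1%), against 4.53% of all promoters and 17.9% in the other receptor genes. TATAAA, the TATA box, stood in 58 (40.0%), against 12.6% and 41.2%. Both are rich in A and T, as these promoters are. The letters GAGGAAGT of PU.1, a myeloid factor, stood in 0, against 3.13% and 0.872%. The promoters of the 6 open genes that have one held none of these letters in their windows, which are descriptions and not binding sites.

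Of 34 other genes of odorant signalling and receptor choice, 30 had a peak in their body or within 1 kb in every library. This count stands beside 69.0% of all protein-coding genes, and the 34 are long, with a median of 47954 bp. Gnal and Stoml3, a membrane protein of olfactory neurons, were among the 30 but had no peak within 1 kb of either gene end in any library. Others open were Gnb1, a G protein subunit of many cells, Setdb1, a histone methyltransferase, and Lbr, a lamin receptor of the nuclear envelope. Rtp1, which carries receptors to the cell surface, Gng13 and Cnga2 were closed in all libraries, and 0 of the 34 were open in one group alone. Blood genes of the same chromosomes were open in all libraries at 22 of 23, among them the monocyte receptors Ccr2 and Cx3cr1. The exception was Cd3e, with a peak in 0 DTR libraries and 1 WT library.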

How the data were processed

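Peak lists of 3 DTR and 3 WT ATAC-seq libraries were used as deposited, 1 list per library. The tools named in the submitters' processing notes are MACS2, fastp, Bowtie and Bowtie2 (2.4.4). Not given in the sources used here are their parameters, the treatment of reads that align to several paralogues, any Tn5 shift and the genome build. The deposited lists give a fold enrichment (a ratio), the −log10 of p and q, and a score for each peak. The deposited score was not used. Groups and replicate numbers came from sample titles.

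Genes came from the GRCm38.p6 RefSeq table. Its fit was checked: 60.4% of 2202 promoters of other genes of chromosomes 9 and 17 lay under a peak in all libraries, against 5.90% and 5.22% after moving them by 5 and 20 kb. Genes on scaffolds outside the chromosome sequences were left out, leaving 21787. Overlaps (at least 1 bp) were computed with Python 3.11.15, pandas 2.3.3 and numpy 2.4.6, and promoters were aligned with Biopython 1.88. Group differences were tested by the exact two-sided permutation test over the 20 assignments of libraries. The overlap step and the test were tested on simulated data. Coordinates count from 1.

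The members, gene lists and tests were chosen with earlier results of these data known. Named were all genes with a peak in any library, the neighbours of each cluster and up to 3 genes of each other list, or the exceptions where few. Alternatives were a stricter q, lists of equal length, other windows and overlap, other membership and each library left out. Libraries sharing a number did not deviate together (correlations −0.0381, 0.0249 and 0.000277), so the number was not taken as pairing.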

Additional observations from a re-analysis of the deposited data

How the results depend on the processing

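Of 111 alternative values, 104 left the result as it was (the same sign and side of 0.05, or a count less than 1.5 times larger or smaller), and none of the 61 differences between DTR and WT turned round. With 3 libraries per group no p can pass 0.05, so this says nothing about the stability of those tests. Genes open in all DTR and no WT libraries numbered 0 at a q of at most 1e-05, 0 with lists of equal length and 0 with windows of 5 kb, which take in a further region near Olfr90; leaving out 1 library gave 1 to 2, the 2 being without DTR replicate 2, which lacks the Olfr1564 peak. Windows of 5 kb raised the genes open in all libraries to 9. With promoter windows over 144 genes, an alternative chosen after the data were seen, the difference in open genes was 0 and 1 gene, Olfr110, was open in all libraries. Leaving out 1 library, the other differences ranged from 2 to 2 open genes, 2 to 2.5 peaks, 561 to 746 bp, 0.0134 to 0.0137 in relative share and 0.432 to 0.740 peaks per Mb, with 5 genes open in all libraries and 171 to 172 closed. With a replicate block the difference stayed 2 genes (exact sign-flip p = 0.25, the smallest possible). Gene windows do not enter the cluster density, so window settings gave no value for it. Depth is unknown, so a gene without accessible DNA cannot be told from one with too few reads or reads that could not be placed among paralogues.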

Other observations

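Genes that border the clusters differed in whether they were open. Zfp560 and Zfp202, zinc finger genes 9042 and 4222 bp beyond the clusters of chromosome 9, and Gabbr1, a GABA-B receptor subunit 10886 bp before the fourth cluster, were open in all libraries. Muc16, Panx3, Morc2b, Zfp955b and Esp36 were closed in all libraries. Of the formyl peptide receptor genes of chromosome 17, Fpr1 and Fpr2, which phagocytes use to sense bacterial peptides, were open in all libraries. Fpr3, Fpr-rs3, Fpr-rs4, Fpr-rs6 and Fpr-rs7 were closed, as were all 31 Vmn2r genes of that chromosome.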
